A study of Mus musculus with 12 samples.

Results

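The genes described here act in DNA replication, DNA repair and the cell cycle, and they were measured in mouse testis on 2-colour cDNA arrays. They were chosen by gene symbol alone, from the names that mark origin, helicase, polymerase, clamp, repair, cyclin, cyclin-dependent kinase (CDK) and cell-division-cycle genes, with Cdc42 and its partners left out because they regulate the cytoskeleton. The array carries 108 such genes among 9930 gene symbols, on 151 of its 20355 probes. Of the 108 genes, 103 had values on at least 3 of the 4 arrays of every comparison and were tested, and Cdc45, Cdk5rap1, Cdk7, Lig3 and Rad52 had too few. A gene with several probes was averaged over them, which applies to 34 of the 108 genes. For named genes whose probes disagree, values of single probes are given for some comparisons and not for all.

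Testis RNA was compared between 3 genotypes of male mice on a Castaneus background: Wobbler mice with a modifier, Wobbler mice and wildtype mice. Each array set one genotype against another, and each of the 3 comparisons has 4 arrays: Wobbler versus wildtype, modifier versus wildtype and modifier versus Wobbler. The labels give no age and do not say what the modifier is. Each labelled RNA is a pool of 3 individuals, and nothing says whether the arrays of a comparison used separate pools, so the p-values speak only for the scatter of these arrays, part of which may be technical. In replicates 1 and 2 the first-named genotype carried Cy5 and in replicates 3 and 4 it carried Cy3. The labelling protocol also speaks of a reference pool from control animals, which does not match the genotypes given for the channels. The deposited values are log2 ratios, and replicates 3 and 4 were multiplied by -1 here so that every value is the log2 of the first-named genotype over the one after "versus"; this direction is likely from the titles and the usual Cy5 over Cy3 order but is not stated. As background, Wobbler is a recessive mutation known for motor neuron degeneration and for a defect of acrosome and sperm head formation in spermatids.

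In a dividing cell, the origin recognition complex and Cdc6 load the Mcm2-7 helicase onto DNA, cyclin-CDK pairs fire the origins, and polymerases alpha, delta and epsilon copy both strands with the sliding clamp Pcna, which the replication factor C (Rfc) complex loads. Mismatch, excision and recombination repair and the checkpoint clamp act on errors and breaks, and CDK inhibitors and the anaphase-promoting complex bring the cycle to rest or to division. In the testis, spermatogonia divide and copy their DNA before meiosis, spermatocytes make and repair programmed breaks, and spermatids no longer replicate. A whole-testis ratio cannot tell fewer cells of a type apart from less RNA per cell.

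Every array gave 18325 to 19584 usable spots. Ratios of the same comparison were weakly alike between arrays: across features, Pearson's r between 2 arrays lay between -0.012 and 0.138 for Wobbler versus wildtype, between 0.115 and 0.245 for modifier versus wildtype, and between 0.017 and 0.140 for modifier versus Wobbler. Genes are not independent replicates, and these r values are descriptions. Wobbler versus wildtype replicate 2 was the widest array, with an SD of 1.42 log2 units over features against 0.48 to 0.81 on the other arrays. No 2 arrays held identical values.

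Across the whole group of genes, few differences between the 3 genotypes were found. In Wobbler versus wildtype, 0 of the 103 genes passed limma's test at an adjusted p under 0.05, against 0.306% of all 14729 features. The count was also 0 in modifier versus wildtype, against 0.733% of features. In modifier versus Wobbler, 1 gene passed, Rfc4, which was lower. This is 0.971% of the genes, against 0.414% of features in either direction and 0.299% of features lower. With so few features called in each comparison, 0 calls in a small class or list of genes, as given below, say little about it. At an unadjusted p under 0.05 the counts were 20 genes in Wobbler versus wildtype (19.4%, against 15.7% of features), 4 in modifier versus wildtype (3.88%, against 7.33%) and 8 in modifier versus Wobbler (7.77%, against 11.5%). These shares lie near or below those of all features. The 20 genes of Wobbler versus wildtype were divided equally, 10 higher (9.71%, against 7.22% of features) and 10 lower (9.71%, against 8.47%).

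The median log2 ratio of the 103 genes was 0.01 in Wobbler versus wildtype, 0.01 in modifier versus wildtype and 0.04 in modifier versus Wobbler. The corresponding medians of all tested features were -0.01, 0.01 and 0.08 log2 units. Precision sets what could have been seen: a gene's 95% interval reached a median of 0.53 log2 units to either side of its ratio. The 95% interval of 75 of the 103 genes lay within 1 log2 unit of 0 in modifier versus wildtype (72.8%, against 74.2% of features). The same held for 65 genes in Wobbler versus wildtype (63.1%, against 66.1%) and 74 in modifier versus Wobbler (71.8%, against 69.8%). For these genes, a change of more than 1 log2 unit lies outside the interval; for the others it does not. Of genes with values on all 4 arrays, the arrays shared a sign for 17 of 87 genes in Wobbler versus wildtype (19.5%, against 16.8% of features), 16 of 102 in modifier versus wildtype (15.7%, against 19.1%) and 14 of 94 in modifier versus Wobbler (14.9%, against 17.4%).

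**Figure D1:**
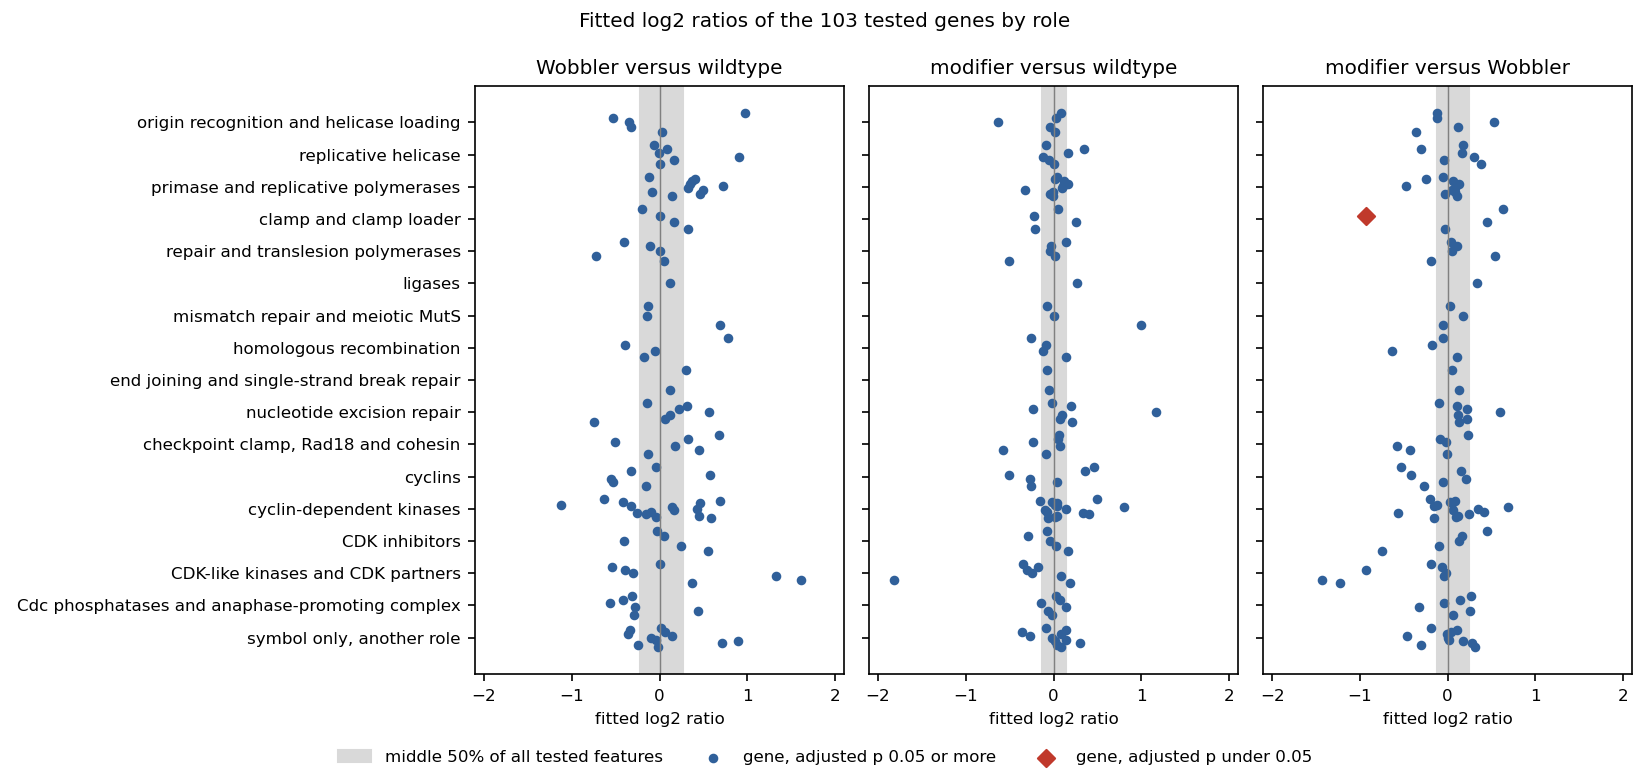
Fitted log2 ratio of each of the 103 tested genes, by role, in Wobbler versus wildtype, modifier versus wildtype and modifier versus Wobbler. Each point is 1 gene, the grey band is the interquartile range of all 14729 tested features, and the red diamond is Rfc4 at -0.92 in modifier versus Wobbler, the only gene with an adjusted p under 0.05.

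Rfc4 encodes a small subunit of the clamp loader, the complex that opens the Pcna ring and places it on DNA. In modifier versus Wobbler its log2 ratios were -0.85, -0.84, -1.17 and -0.84 on the 4 arrays. All 4 values were negative, in both dye orientations. The fitted ratio was -0.92 ± 0.12 (SE, 95% interval -1.19 to -0.66), a 1.90-fold lower signal with the modifier, with an unadjusted p of 1.4e-05 and an adjusted p of 0.011 by limma. The call was lost when the 4 arrays of modifier versus Wobbler were fitted alone and without a dye term. The ratio was then the same and the adjusted p 0.549, but that fit called 0 of all 14729 features. The call was also lost without replicate 1, 2 or 3 of this comparison, with adjusted p of 0.0895, 0.0665 and 0.0602.

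Against wildtype, Rfc4 was not called. Its modifier versus wildtype log2 ratios were -0.19, -0.17, -0.39 and -0.14, all negative, with a fitted ratio of -0.22 ± 0.12 and an adjusted p of 0.866. Those of Wobbler versus wildtype were 0.32, -0.18, 0.11 and -0.23, with a fitted ratio of 0.00 ± 0.12. The modifier versus Wobbler ratio obtained indirectly, as modifier versus wildtype minus Wobbler versus wildtype, was therefore -0.22, against -0.92 on the direct arrays. The indirect minus the direct ratio was 0.70, with an unadjusted p of 0.0065 and an adjusted p of 0.577 by limma, a difference between routes that did not pass across all features. Rfc4 has 1 probe.

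No other clamp gene was called. Rfc5, another small subunit of the same loader, had modifier versus Wobbler log2 ratios of 0.78, 0.69, -0.34 and 1.41, and a fitted ratio of 0.64 ± 0.23 (unadjusted p 0.018, adjusted p 0.325). It was positive on 3 of 4 arrays, opposite in sign to Rfc4. Without replicate 3 of that comparison, Rfc5 had a fitted ratio of 1.02 and an adjusted p of 0.0306. Rfc1, the large subunit, had 1.59, 0.64, 0.52 and -0.94 in modifier versus Wobbler, a range that spans 0, with a fitted ratio of 0.45 ± 0.28. Pcna, the clamp itself, had 0.23, 0.23, -0.54 and -0.04, with a fitted ratio of -0.03 ± 0.11 (95% interval -0.27 to 0.22). In Wobbler versus wildtype Pcna had 0.73, 0.51, -0.02 and 0.07, with a fitted ratio of 0.32 ± 0.11 (unadjusted p 0.014, adjusted p 0.219), the 2 higher values being those with Wobbler in Cy5.

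**Figure D2:**
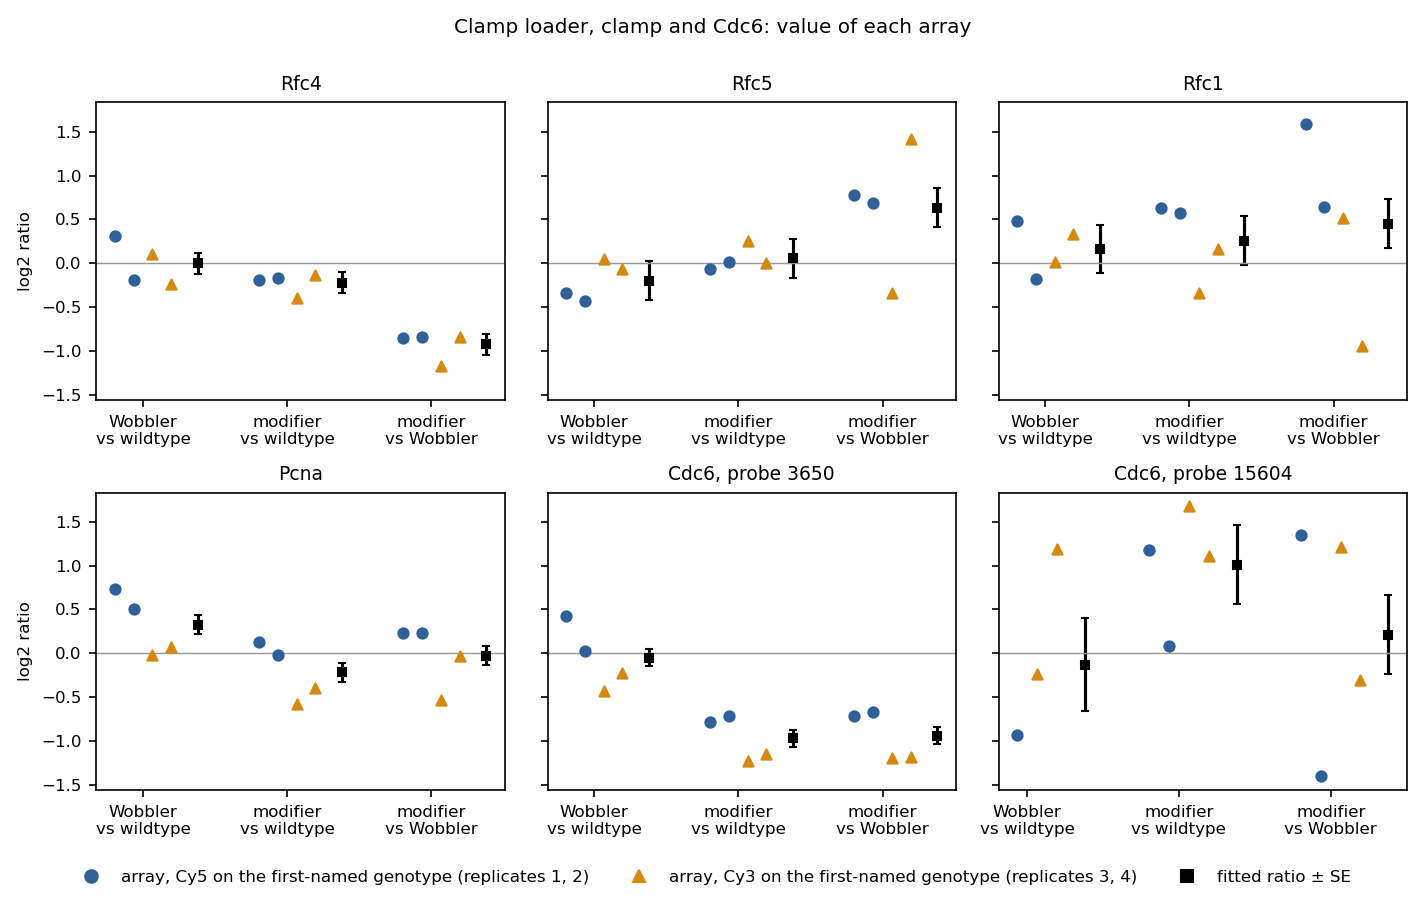
Log2 ratio on each array for Rfc4, Rfc5, Rfc1, Pcna and both probes of Cdc6, in Wobbler versus wildtype, modifier versus wildtype and modifier versus Wobbler. Circles are arrays with the first-named genotype in Cy5, triangles those with it in Cy3, and squares are fitted ratios with their SE; Rfc4 lies between -1.17 and -0.84 in modifier versus Wobbler, and Cdc6 probe 3650 lies at -0.67 or lower on all 8 arrays with the modifier.

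Over the 12 arrays, the named genes whose ratios were most like those of Rfc4, among 8044 genes with a value on every array, were Rbfox3 (Pearson's r 0.854), Lgals1 (0.843) and Sqor (0.841). These r values describe 12 arrays that share 3 genotypes.

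Cdc6, the ATPase that loads the Mcm helicase at origins, was not called as a gene average, but its 2 probes disagreed; it was singled out after its values were seen. Probe 3650 read -0.78, -0.72, -1.22 and -1.15 in modifier versus wildtype, and -0.72, -0.67, -1.20 and -1.18 in modifier versus Wobbler. All 8 values were negative. With each probe as its own feature, its fitted ratio was -0.97 ± 0.10 in modifier versus wildtype (adjusted p 0.0022 by limma) and -0.94 ± 0.10 in modifier versus Wobbler (adjusted p 0.0073). The same probe read 0.42, 0.02, -0.43 and -0.22 in Wobbler versus wildtype, with a fitted ratio of -0.05 ± 0.10. Its indirect modifier versus Wobbler ratio was -0.92, and the indirect minus the direct ratio was 0.02 ± 0.17 (unadjusted p 0.91), a difference between routes smaller than its SE.

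Probe 15604 of Cdc6 did not follow. It read 1.18, 0.08, 1.68 and 1.11 in modifier versus wildtype, with a fitted ratio of 1.01 ± 0.45 (adjusted p 0.65), and 1.34, -1.41, 1.22 and -0.31 in modifier versus Wobbler, with a fitted ratio of 0.21 ± 0.45. Its SE was several times that of probe 3650. The average of both probes was 0.02 ± 0.24 in modifier versus wildtype and -0.36 ± 0.24 in modifier versus Wobbler, and the gene is not called on that average. Which probe reports Cdc6 RNA was not tested.

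With each probe as its own feature, 2 of 134 probes of the group were called in modifier versus wildtype, both lower (1.49%, against 0.915% of 18038 probes), and 2 in modifier versus Wobbler, both lower (1.49%, against 0.61%). No probe was called in Wobbler versus wildtype, against 0.482% of probes. The probes were the Cdc6 probe in both comparisons with the modifier, the Rfc4 probe in modifier versus Wobbler, and probe 14389 of Cdk5rap2 in modifier versus wildtype. Cdk5rap2, a centrosome protein, read -0.75, -0.59, -0.62 and -0.74 with that probe, a fitted ratio of -0.68 ± 0.13 (adjusted p 0.048). Its other probe, 3651, gave 0.18 ± 0.15 in the same comparison. Among the 28 genes with at least 2 tested probes, all probes of a gene shared a sign for 19 genes in Wobbler versus wildtype, 17 in modifier versus wildtype and 10 in modifier versus Wobbler. The median gap between the highest and lowest probe of a gene was 0.48, 0.19 and 0.31 log2 units in those comparisons.

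Markers of late spermatids were low in the comparisons where Rfc4 or Cdc6 probe 3650 was called and are given here for that reason. All 19 tested markers were below 0 in modifier versus wildtype, where 11 fell and the median was -1.01 (from -1.60 for Prm2 to -0.30 for Tcp11). All 19 were below 0 in modifier versus Wobbler too, where 7 fell and the median was -0.68 (from -1.30 for Spz1 to -0.18 for Ldhc). In Wobbler versus wildtype 0 were called and the median was 0.04. Of all 14729 features, 103 were called lower in modifier versus wildtype and 44 in modifier versus Wobbler. Those below 0 numbered 6992 in modifier versus wildtype and 5649 in modifier versus Wobbler. Cdc6 probe 3650 was low in the same 2 comparisons. Rfc4 was called in only 1 of them and had a fitted ratio of -0.22 in modifier versus wildtype. Of 8 Leydig cell markers, 2 fell in modifier versus wildtype and 1 in modifier versus Wobbler, with medians of -0.70 and -0.50. The part of these cell types in the Rfc4 and Cdc6 values was not tested.

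Markers of spermatogonia, meiotic cells, Sertoli cells and macrophages gave few calls. Of 9 spermatogonial markers, 0 passed in any of the 3 comparisons, with medians of -0.10 in Wobbler versus wildtype, 0.16 in modifier versus wildtype and 0.13 in modifier versus Wobbler. Of 7 meiotic markers, 1 fell in modifier versus wildtype, Syce2 at -0.94, a component of the synaptonemal complex. In that comparison 3 of the 7 were above 0 and 4 below, with a median of -0.03. In modifier versus Wobbler 6 of the 7 were above 0, with a median of 0.28, and Syce2 was -0.65. The median was 0.04 in Wobbler versus wildtype. Of 9 Sertoli cell markers 0 passed, and of 5 macrophage markers 1 fell in modifier versus wildtype, Tyrobp at -0.68. The 5 macrophage markers had a median of -0.006 there, with 2 above 0 and 3 below.

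The stretches just upstream of the start sites of Rfc4, its partner Rfc5 and Cdc6 are shown because Rfc4 and 1 probe of Cdc6 were called and Rfc5 had the opposite sign to Rfc4; they are 250 bases each, 5′ to 3′ on the gene's strand, from RefSeq on GRCm38.p6. The motifs searched on both strands were TTTGGCGC and TTTCGCGC (forms of the E2F site), TTTGAA (the cell cycle homology region) and CCAAT, and capitals would mark them. Rfc4 lies on the minus strand (chr16:23127731-23127980), Rfc5 on the minus strand (chr5:117389024-117389273) and Cdc6 on the plus strand (chr11:98907901-98908150).
Rfc4: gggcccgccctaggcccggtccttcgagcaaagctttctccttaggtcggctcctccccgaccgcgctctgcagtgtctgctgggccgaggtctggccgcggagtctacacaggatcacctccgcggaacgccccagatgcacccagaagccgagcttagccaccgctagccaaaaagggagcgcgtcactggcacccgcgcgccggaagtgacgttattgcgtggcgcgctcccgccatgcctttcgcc
Rfc5: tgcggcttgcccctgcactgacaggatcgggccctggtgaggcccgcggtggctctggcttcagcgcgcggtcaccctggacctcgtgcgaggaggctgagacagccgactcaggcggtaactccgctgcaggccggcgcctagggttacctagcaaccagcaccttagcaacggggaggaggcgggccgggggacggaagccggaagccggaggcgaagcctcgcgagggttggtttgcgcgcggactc
Cdc6: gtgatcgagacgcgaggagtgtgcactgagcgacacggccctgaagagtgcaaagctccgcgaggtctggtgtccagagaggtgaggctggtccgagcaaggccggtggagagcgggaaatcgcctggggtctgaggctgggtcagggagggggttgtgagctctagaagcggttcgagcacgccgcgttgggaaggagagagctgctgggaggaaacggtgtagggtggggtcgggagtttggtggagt
None of the 3 windows held any of the 4 motifs, which says only that these letters are absent there. Their G+C content was 67.2% for Rfc4, 70.0% for Rfc5 and 63.6% for Cdc6, against a median of 61.6% over the 100 windows found for 87 of the 108 genes and 52.4% over all 32851 windows. Also searched but not shown were the window of Rfc1, which held 1 CCAAT, and that of Cdk5rap2, which held 0 motifs.

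Other promoters of the group did hold these letters, and 3 are shown because they are the fullest examples; they were picked after the motif counts were seen. Either E2F form occurred in 5 of the 100 windows of the group (5.0%), against 0.654% of all windows, in Cdc25a, Cdk1, Mcm5, Mcm6 and Msh3. CCAAT occurred in 48.0% of the group's windows and 33.8% of all, and TTTGAA in 9 of the group's 100 windows and 5252 of all 32851. Mcm5 is on the plus strand (chr8:75109259-75109508), and Mcm6 (chr1:128359706-128359955) and Cdk1 (chr10:69352913-69353162) are on the minus strand, with motifs in capitals.
Mcm5: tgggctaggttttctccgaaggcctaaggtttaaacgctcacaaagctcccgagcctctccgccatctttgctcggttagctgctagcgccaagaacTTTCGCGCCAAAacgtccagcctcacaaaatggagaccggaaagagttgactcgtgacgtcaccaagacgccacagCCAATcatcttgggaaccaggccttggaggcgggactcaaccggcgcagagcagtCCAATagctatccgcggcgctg
Mcm6: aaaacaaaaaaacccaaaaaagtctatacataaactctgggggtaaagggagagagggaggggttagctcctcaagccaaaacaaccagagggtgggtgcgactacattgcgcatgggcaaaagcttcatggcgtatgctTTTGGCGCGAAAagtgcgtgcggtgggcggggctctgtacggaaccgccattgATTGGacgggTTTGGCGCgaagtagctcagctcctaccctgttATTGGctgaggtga
Cdk1: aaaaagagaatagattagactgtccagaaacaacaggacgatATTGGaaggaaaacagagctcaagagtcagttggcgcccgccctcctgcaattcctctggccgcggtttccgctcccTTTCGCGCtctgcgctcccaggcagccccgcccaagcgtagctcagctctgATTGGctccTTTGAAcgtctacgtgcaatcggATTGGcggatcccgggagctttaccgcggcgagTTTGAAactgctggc
In Mcm5 and Mcm6, the 2 E2F forms overlap in one run on opposite strands (TTTCGCGCCAAA and TTTGGCGCGAAA). A match is a description of letters and not of a bound factor. The 5 genes with an E2F form were not called in any comparison.

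As gene averages, the tested origin genes gave 0 calls, Cdc6 included. Orc6, a subunit of the origin recognition complex, had a fitted ratio of 0.97 ± 0.38 in Wobbler versus wildtype (adjusted p 0.275), from arrays at 0.50, 3.13, -0.26 and 0.53. The value of 3.13 is from replicate 2, the widest array, and leaving out single arrays moved the fitted ratio between 0.28 and 1.32. Orc5, of the same complex, was -0.53 ± 0.25 (adjusted p 0.343), with arrays at 0.32, -0.27, -1.61 and -0.54. Neither gene had the same sign on all arrays. Mcm10, which helps the helicase to start, was -0.33 ± 0.24 in Wobbler versus wildtype, and Orc3 was -0.64 ± 0.41 in modifier versus wildtype.

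All 6 subunits of the replicative helicase were tested and 0 were called in any comparison. Their median log2 ratios were 0.04 in Wobbler versus wildtype, -0.02 in modifier versus wildtype and 0.17 in modifier versus Wobbler. The most precise was Mcm7, at -0.07 ± 0.13 in Wobbler versus wildtype, -0.09 ± 0.13 in modifier versus wildtype and 0.18 ± 0.13 in modifier versus Wobbler. Mcm2 was positive on 4 of 4 arrays in modifier versus Wobbler, at 0.37, 0.26, 0.08 and 0.82, with a fitted ratio of 0.38 ± 0.21 (adjusted p 0.512). Mcm5 was 0.17 ± 0.15 with the modifier, against wildtype as against Wobbler. Mcm3 was -0.05 ± 0.15 in those comparisons, and Mcm6 was 0.35 ± 0.33 in modifier versus wildtype. Mcm4 stood at 0.90 ± 0.56 in Wobbler versus wildtype, from 1 array at 4.17 (replicate 2) against 0.28, -0.46 and -0.38 on the others.

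**Figure D3:**
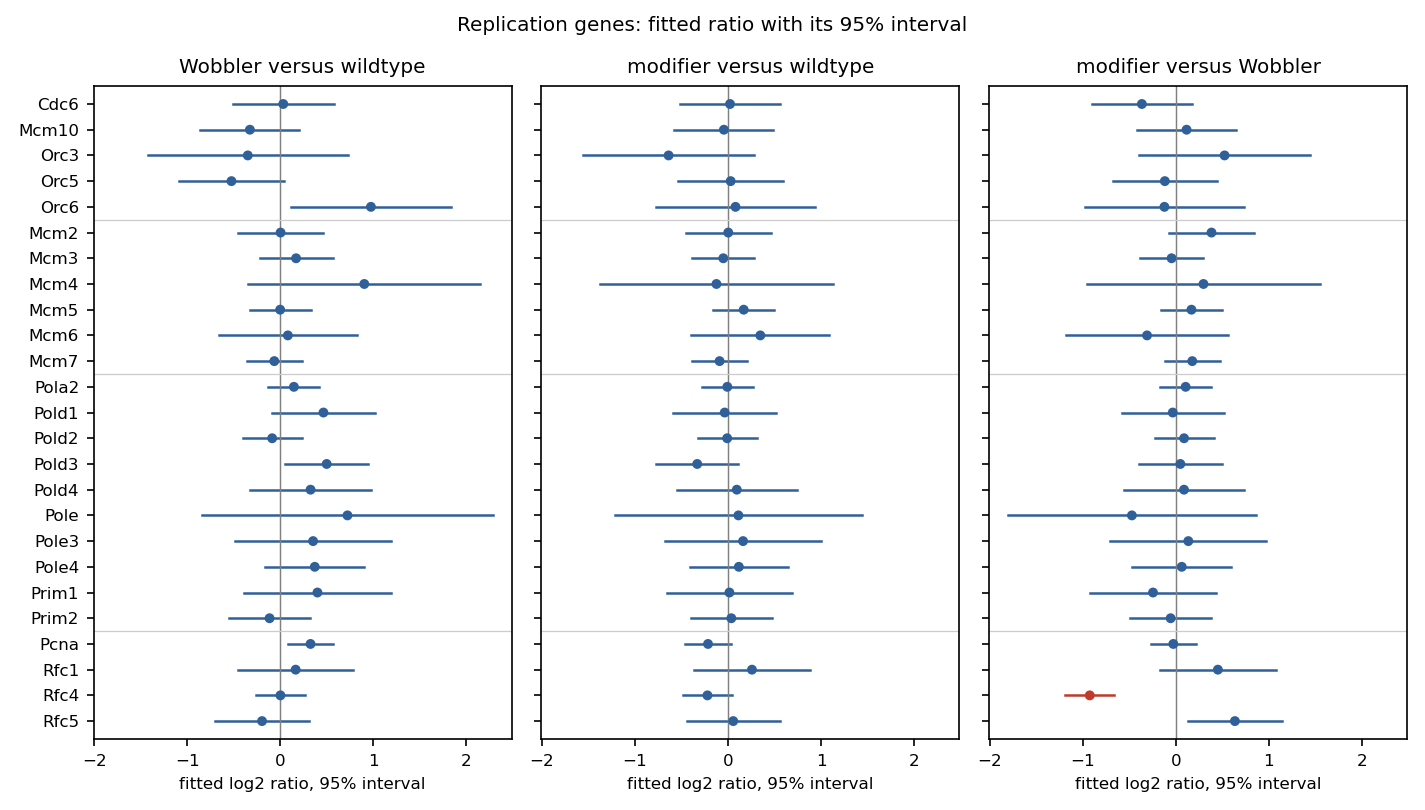
Fitted log2 ratio with its 95% interval for the origin, helicase, primase and polymerase, and clamp genes, from top to bottom, in Wobbler versus wildtype, modifier versus wildtype and modifier versus Wobbler. Thin lines separate the roles, and Rfc4 in modifier versus Wobbler (-1.19 to -0.66, red) is the only gene with an adjusted p under 0.05.

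Primase and the replicative polymerases gave 0 calls. In Wobbler versus wildtype, 8 of 10 genes were above 0 (80%, against 49.2% of features), with a median of 0.36. Of these 10 genes, 1 had an unadjusted p under 0.05 by limma (10%, against 15.7% of features). Of the 10 genes, 6 were above 0 in each comparison with the modifier, with medians of 0.02 against wildtype and 0.06 against Wobbler. Pold3, an accessory subunit of polymerase delta, read 0.95, -0.29, 0.76 and 0.57 in Wobbler versus wildtype, with a fitted ratio of 0.50 ± 0.20 (unadjusted p 0.031, adjusted p 0.280). The negative value is that of replicate 2, and without it Pold3 had a fitted ratio of 0.83 and an adjusted p of 0.0336. In modifier versus wildtype Pold3 read -0.02, -0.27, -0.63 and -0.41, with a fitted ratio of -0.33 ± 0.20 (adjusted p 0.968). Pole, the catalytic subunit of polymerase epsilon, had 0.72 ± 0.69 in Wobbler versus wildtype, from -0.70, 3.34 and -0.21 on 3 arrays. Pola2, of the polymerase alpha and primase complex, averaged -0.01 ± 0.12 in modifier versus wildtype and 0.11 ± 0.12 in modifier versus Wobbler. Its Wobbler versus wildtype average of 0.15 ± 0.12 combines probes of opposite sign, 5833 at 0.55 ± 0.16 and 6694 at -0.26 ± 0.12. Prim1, the catalytic primase subunit, was 0.40 ± 0.35 in Wobbler versus wildtype.

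Among the repair polymerases, Polb, which fills gaps in base excision repair, read -0.18, -0.63, -0.65 and -0.59 in modifier versus wildtype. All 4 arrays were negative, and 3 lay close together. The fitted ratio was -0.51 ± 0.17 (unadjusted p 0.014, adjusted p 0.375 by limma), and with arrays weighted by their spread it was -0.51 with an adjusted p of 0.0278. Weighting the arrays called 709 of all 14729 features in modifier versus wildtype, against 108 without weights. In modifier versus Wobbler Polb read -0.51, -0.08, -0.59 and 0.43, a fitted ratio of -0.19 ± 0.17, and in Wobbler versus wildtype it was 0.05 ± 0.17. Polm, which acts in end joining, was -0.41 ± 0.21 in Wobbler versus wildtype. Poll, of the same family, was -0.02 ± 0.10 in modifier versus wildtype and 0.10 ± 0.10 in modifier versus Wobbler.

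Msh3, a mismatch recognition protein, read 0.11, 0.72, 0.58 and 2.56 in modifier versus wildtype, all positive, with a fitted ratio of 0.99 ± 0.39 (unadjusted p 0.030, adjusted p 0.548). This average rests on probe 3335, at 1.81 ± 0.67 with 1 array at 5.09, while probe 695 was 0.17 ± 0.34. Leaving out single arrays moved the average between 0.38 and 1.35. Msh5, which acts in meiotic crossing over, averaged 0.01 ± 0.14 in the same comparison over 3 probes between -0.20 and 0.13, and 0.18 ± 0.14 in modifier versus Wobbler. Msh6 was -0.08 ± 0.35 in modifier versus wildtype.

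Recombination genes gave 0 calls. In Wobbler versus wildtype 1 of the 4 tested was above 0 (25%, against 49.2% of features) and 3 below, with a median of -0.11. The gene above 0 was Xrcc3, which read 0.52, 2.14, 0.45 and -0.01 there, with a fitted ratio of 0.78 ± 0.27 (adjusted p 0.226). That average rests on probe 6284, which has 1 array at 4.44 (replicate 2) and too few values elsewhere to be tested alone; the other probe, 7287, was 0.12 ± 0.12. Rad50, of the break-sensing complex, was -0.18 ± 0.16, 0.14 ± 0.16 and 0.10 ± 0.16 in Wobbler versus wildtype, modifier versus wildtype and modifier versus Wobbler. Its probes 2907 and 12668 differed in modifier versus wildtype, at -0.04 ± 0.30 and 0.33 ± 0.16, and in modifier versus Wobbler, at 0.32 ± 0.30 and -0.11 ± 0.16.

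Excision and break repair genes also gave 0 calls. Ercc8, which acts in transcription-coupled repair, had a positive average on all 12 arrays: it read 0.30, 0.82, 0.09 and 0.04 in Wobbler versus wildtype (fitted 0.31 ± 0.13, adjusted p 0.285), 0.15, 0.13, 0.26 and 0.25 in modifier versus wildtype (fitted 0.20 ± 0.13) and 0.09, 0.19, 0.03 and 0.13 in modifier versus Wobbler (fitted 0.11 ± 0.13). Ercc1, the partner of the Ercc4 nuclease, averaged -0.75 ± 0.36 in Wobbler versus wildtype. Its probe 13184 was -0.20 ± 0.12 there, and the low average comes from probe 8113, which has 2 values in that comparison, -1.12 and -3.56, and was not tested alone. Xrcc1, a scaffold of single-strand break repair, averaged -0.05 ± 0.13 in modifier versus wildtype and 0.13 ± 0.13 in modifier versus Wobbler. Its Wobbler versus wildtype average of 0.12 ± 0.13 combines probe 7245, negative on 4 of 4 arrays at -0.20 ± 0.16, with probe 12252, positive on 4 of 4 arrays at 0.44 ± 0.15. In modifier versus Wobbler probe 7245 was 0.335 ± 0.16 and probe 12252 was -0.07 ± 0.15. Lig1, the replicative ligase, was 0.27 ± 0.43 in modifier versus wildtype and 0.33 ± 0.43 in modifier versus Wobbler.

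Rad17, which loads the checkpoint clamp together with the small Rfc subunits, Rfc4 among them, was the gene with the smallest p in modifier versus wildtype. It read -0.48, -0.56, -0.62 and -0.63 there, negative on 4 of 4 arrays within a narrow range. The fitted ratio was -0.57 ± 0.19 (unadjusted p 0.012, adjusted p 0.350 by limma), and -0.58 with an adjusted p of 0.0262 when arrays were weighted by their spread. With those weights 709 of all 14729 features were called in modifier versus wildtype, against 108 without them. In modifier versus Wobbler Rad17 read -0.89, -0.35, -0.21 and -0.24, again negative on all arrays, with a fitted ratio of -0.42 ± 0.19 (unadjusted p 0.048, adjusted p 0.432). In Wobbler versus wildtype it was 0.45 ± 0.19, from 1.12, 0.56, 0.33 and -0.21. The comparisons share genotypes, so these values are not independent of each other.

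The clamp that Rad17 loads was measured through Rad1, Rad9a and Rad9b. Rad9b read 0.14, 0.68, 1.58 and 0.31 in Wobbler versus wildtype, positive on 4 of 4 arrays, with a fitted ratio of 0.68 ± 0.20 (unadjusted p 0.0060, adjusted p 0.173). Its probe 11127 was 1.21 ± 0.46, with 1 array at 3.12, and its probe 7131 was 0.24 ± 0.14. Rad9a averaged 0.32 ± 0.17 in the same comparison, from probes at 0.71 ± 0.31 and -0.06 ± 0.16, and Rad1 was -0.14 ± 0.17. Rad21, a cohesin subunit, read -0.15, -0.50, -0.62 and -0.78, negative on 4 of 4 arrays, with a fitted ratio of -0.51 ± 0.19 (adjusted p 0.248). Rad18, a ubiquitin ligase that acts on Pcna, read -1.52, -0.09, -0.25 and -0.45 in modifier versus Wobbler, with a fitted ratio of -0.58 ± 0.25 (unadjusted p 0.046, adjusted p 0.428).

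Among the cyclins, Ccna2, which drives S phase and mitotic entry, was the only one with an unadjusted p under 0.05 in any comparison. Its average read -1.07, -0.42, -0.23 and -0.39 in Wobbler versus wildtype, with a fitted ratio of -0.53 ± 0.14 (unadjusted p 0.0044, adjusted p 0.158). The probes disagreed: 3536 was negative on 4 of 4 arrays at -1.20 ± 0.32, and 10601 was 0.14 ± 0.15, with values on both sides of 0. With the modifier the Ccna2 average was 0.03 ± 0.14 against wildtype and -0.05 ± 0.14 against Wobbler. Its indirect modifier versus Wobbler ratio was 0.56, against the direct -0.05 (unadjusted p of the difference 0.034 by limma). Ccna1, the germ-cell cyclin A, was too scattered to place, with an SE of 0.56 in each comparison and arrays from -2.91 to 1.30 in modifier versus wildtype. Ccne1, a G1 cyclin, was 0.46 ± 0.27 in modifier versus wildtype and -0.53 ± 0.27 in modifier versus Wobbler, opposite in sign, with adjusted p of 0.962 and 0.503. Ccnb2 was -0.55 ± 0.33, Ccnd2 0.57 ± 0.39 and Ccnd3 -0.33 ± 0.35 in Wobbler versus wildtype, with each 95% interval spanning 0. The probes of Ccnb2 gave 0.23 ± 0.15 and -1.33 ± 0.62 there, and the 1 tested probe of Ccnd2 gave 0.30 ± 0.36.

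Cdk3, a kinase near in sequence to Cdk2 that many laboratory mouse strains carry with a premature stop codon, had the smallest p of the group in Wobbler versus wildtype. It read -1.72, -1.92, -0.07 and -0.77, negative on 4 of 4 arrays and lowest on the arrays with Wobbler in Cy5. The fitted ratio was -1.12 ± 0.24 (95% interval -1.66 to -0.58, unadjusted p 0.00098, adjusted p 0.113). Over the other settings tried and with single arrays left out, the adjusted p lay between 0.0707 and 0.804. Cdk3 was 0.01 ± 0.24 in modifier versus wildtype and -0.12 ± 0.24 in modifier versus Wobbler, so the indirect modifier versus Wobbler ratio was 1.13 against the direct -0.12 (unadjusted p of the difference 0.014).

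The kinases that drive division gave no call. Cdk1, the mitotic kinase, read 0.66, 1.79, 0.05 and -0.17 in Wobbler versus wildtype, with a fitted ratio of 0.58 ± 0.22 (adjusted p 0.259). It was near 0 in modifier versus wildtype, at -0.06, -0.06, -0.13 and -0.02. Cdk6, a G1 kinase, read 0.95, -0.06, 0.66 and 1.21 in Wobbler versus wildtype, with a fitted ratio of 0.69 ± 0.25 (adjusted p 0.254). Cdk4, its relative, was 0.47 ± 0.24 in that comparison and 0.04 ± 0.24 in modifier versus wildtype. Cdk2, the S-phase and meiotic kinase, ranged from -2.53 to 1.99 in modifier versus Wobbler, with a fitted ratio of 0.69 ± 0.64. Its probes 19021 and 20240 gave 0.79 ± 0.52 and -0.30 ± 0.90 there. Cdk11b, linked to splicing, was positive on 4 of 4 arrays in Wobbler versus wildtype, at 0.24, 0.20, 0.92 and 0.46 (fitted 0.45 ± 0.16, adjusted p 0.246). Cdk5, known for its work in neurons, was negative on 4 of 4 arrays there, at -0.13, -0.03, -1.24 and -0.30 (fitted -0.42 ± 0.16, adjusted p 0.263).

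**Figure D4:**
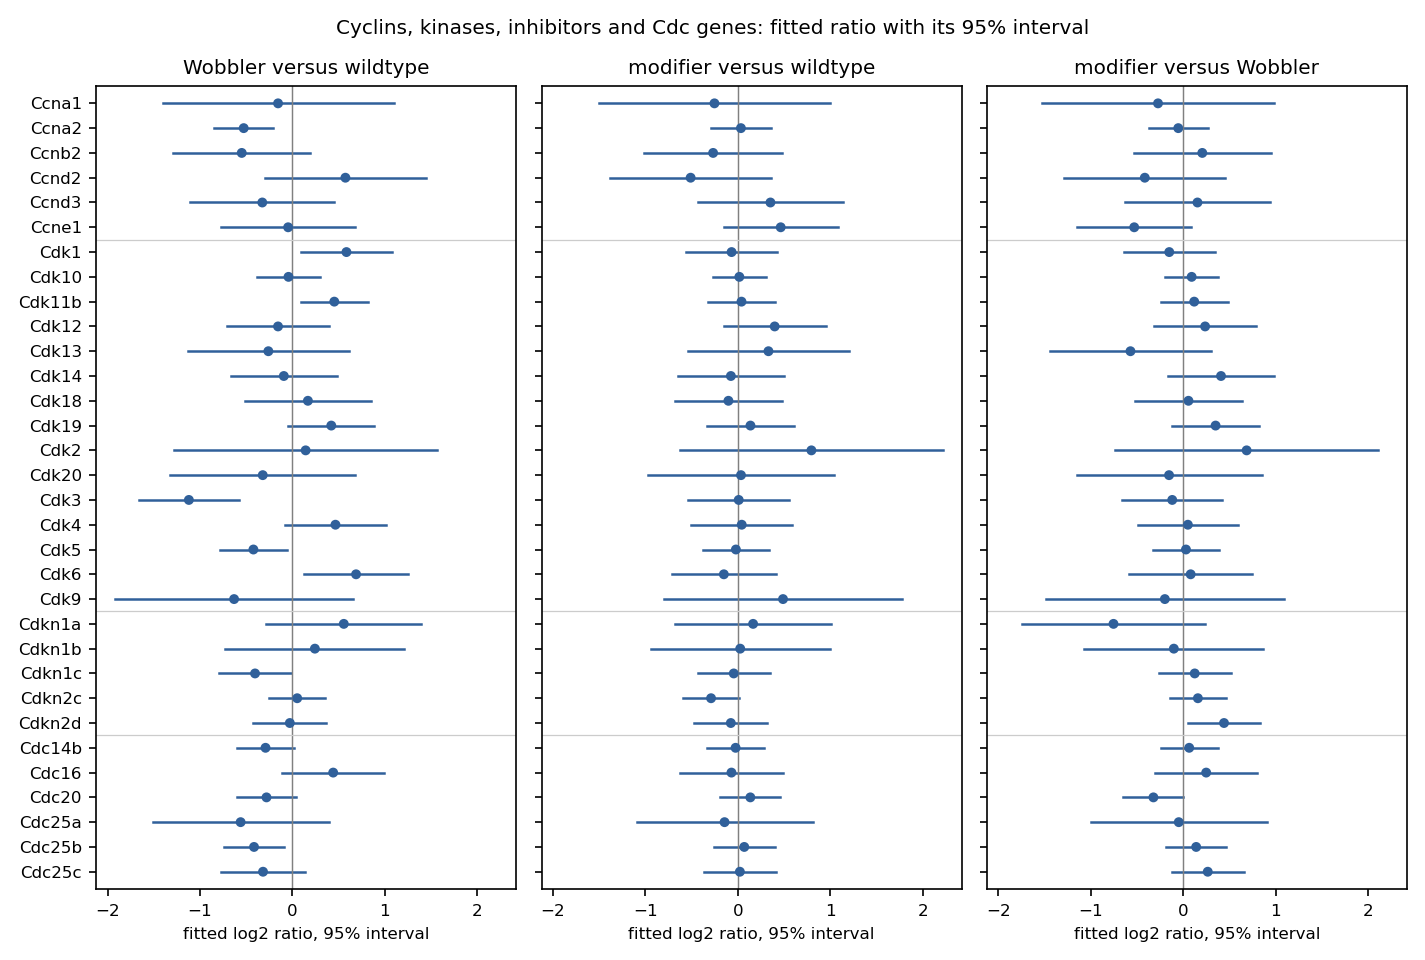
Fitted log2 ratio with its 95% interval for the cyclins, cyclin-dependent kinases, CDK inhibitors, and Cdc phosphatases with the anaphase-promoting complex, from top to bottom, in Wobbler versus wildtype, modifier versus wildtype and modifier versus Wobbler. No gene shown has an adjusted p under 0.05; Cdk3 in Wobbler versus wildtype has the interval farthest from 0 (-1.66 to -0.58).

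Of the CDK inhibitors, Cdkn2d (p19), known to be expressed in spermatocytes, read 0.05, 0.42, 0.25 and 1.05 in modifier versus Wobbler. It was positive on 4 of 4 arrays, with a fitted ratio of 0.44 ± 0.18 (unadjusted p 0.031, adjusted p 0.382), and -0.08 ± 0.18 in modifier versus wildtype. Cdkn2c (p18), of the same family, read -0.02, -0.17, -0.67 and -0.30 in modifier versus wildtype, with a fitted ratio of -0.29 ± 0.14 (adjusted p 0.722). Cdkn1c (p57) was negative on 4 of 4 arrays in Wobbler versus wildtype, at -0.70, -0.22, -0.03 and -0.66 (fitted -0.41 ± 0.18, adjusted p 0.307). Cdkn1a (p21) and Cdkn1b (p27) had wide intervals, with SEs of 0.37 and 0.44 in Wobbler versus wildtype. Of the 2 probes of Cdkn1b, 1418 was 0.13 ± 0.11 and 18864 was 0.35 ± 0.83 there.

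In the last regulatory class, 5 of 6 Cdc phosphatases and anaphase-promoting complex genes were below 0 in Wobbler versus wildtype, with a median of -0.31 and 0 calls. The share above 0 was 16.7%, against 49.2% of features. Cdc25b, a phosphatase that activates CDKs, read -0.13, 0.10, -0.87 and -0.76, with a fitted ratio of -0.42 ± 0.15 (unadjusted p 0.018, adjusted p 0.238). Cdc20, an activator of the anaphase-promoting complex, was negative on 4 of 4 arrays in Wobbler versus wildtype, at -0.10, -0.13, -0.28 and -0.61 (fitted -0.28 ± 0.15). It was also negative on 4 of 4 arrays in modifier versus Wobbler, at -0.23, -0.09, -0.31 and -0.65 (fitted -0.32 ± 0.15), yet it was 0.14 ± 0.15 in modifier versus wildtype. The direct and indirect ratios of Cdc20 therefore had opposite signs, with an indirect minus direct value of 0.74 (unadjusted p 0.015).

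CDK partners and CDK-like kinases held the largest ratios and the largest errors. Cdk2ap2, a CDK2-associated protein, was 1.61 ± 1.27 in Wobbler versus wildtype, from -1.43, 4.97 and 0.45 on 3 arrays. Cdk2ap1, its relative, was -1.22 ± 0.49 in modifier versus Wobbler, from -2.78, -0.21 and -0.38 on 3 arrays (unadjusted p 0.036, adjusted p 0.396). Replicate 1 holds the array's highest code for this gene and was set to missing; with the code kept as deposited, the ratio changes sign to 3.15 (adjusted p 0.664). All 7 tested genes of this class were below 0 in modifier versus Wobbler, with a median of -0.19 and 0 calls, Cdk2ap1 only with the code left out. Of all features, 61.6% were above 0 there. Cdk5rap2 at -0.02 ± 0.12, Cdk5r1 at -0.04 ± 0.81 and Cdkl1 at -0.06 ± 0.65 each lay within their SE of 0. The probes of Cdk5rap2 had opposite signs, 3651 at 0.47 ± 0.15 and 14389 at -0.52 ± 0.13. Cdkl3, a CDK-like kinase, read -0.09, -0.03, -0.52 and -0.76 in modifier versus wildtype, with a fitted ratio of -0.35 ± 0.15 (adjusted p 0.598). Of its 3 probes, 8078 was -0.32 ± 0.11 and 10261 was -0.05 ± 0.12, and 9302 had too few values to be tested alone.

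Some genes share only the symbol pattern and work elsewhere. Cdc123, a chaperone of translation initiation, read 0.26, 0.61, 0.19 and 0.20 in modifier versus Wobbler, with a fitted ratio of 0.32 ± 0.12 (unadjusted p 0.022, adjusted p 0.340). Poldip3, an RNA export protein, read -0.10, -0.23, -0.66 and -0.35 in Wobbler versus wildtype, with a fitted ratio of -0.33 ± 0.10 (unadjusted p 0.0091, adjusted p 0.196). Both genes had 4 of 4 arrays on one side of 0.

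Other genes of these pathways, listed by name from outside the symbol rule, gave no call. Of 121 listed genes 82 were on the array and 76 were tested, and 0 were called in any of the 3 comparisons by limma. Their median log2 ratios were 0.00 in Wobbler versus wildtype, 0.01 in modifier versus wildtype and 0.14 in modifier versus Wobbler. At an unadjusted p under 0.05, 18 genes stood out in Wobbler versus wildtype (23.7%, against 15.7% of features), 11 higher (14.5%, against 7.22%) and 7 lower (9.21%, against 8.47%). The counts were 5 in modifier versus wildtype (6.58%, against 7.33%), 2 higher and 3 lower, and 10 in modifier versus Wobbler (13.2%, against 11.5%), 6 higher and 4 lower. In modifier versus Wobbler the smallest p values belonged to Tk1, the thymidine kinase of S phase, at 0.59 ± 0.15 (adjusted p 0.145), Fbxo5, an inhibitor of the anaphase-promoting complex, at -2.19 ± 0.58 (adjusted p 0.166), and Clspn, a checkpoint adaptor, at 0.75 ± 0.21 (adjusted p 0.193). The indirect modifier versus Wobbler ratios were 0.46 for Tk1, 0.14 for Fbxo5, opposite in sign to its direct ratio, and 0.38 for Clspn.

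The closed loop of comparisons gives modifier versus Wobbler by 2 routes for every gene. The indirect minus the direct ratio passed for 0 of the 103 genes at an adjusted p under 0.05, against 0.0272% of features, and for 9 at an unadjusted p under 0.05 (8.74%, against 6.95% of features). Rfc4, Cdk3, Cdc20 and Ccna2 were among these 9. The dye term of the fit passed for 0 genes, against 0.00679% of features, and was above 0 for 79 genes (76.7%, against 81.1% of features). At an unadjusted p under 0.05 by limma it stood out for 24 genes (23.3%), Cdc25b and Cdkl3 among them. The share of all features at that threshold is not given here.

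**Figure D5:**
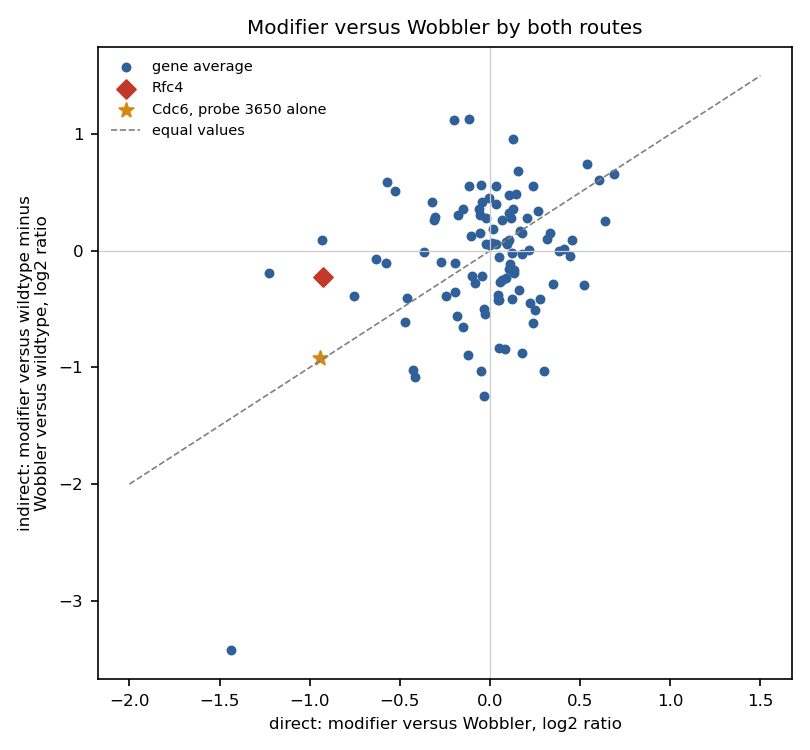
Modifier versus Wobbler log2 ratio of each of the 103 genes from the direct arrays (horizontal axis) and from modifier versus wildtype minus Wobbler versus wildtype (vertical axis), with the line of equal values. Rfc4 (diamond) lies off the line at -0.92 direct and -0.22 indirect, and Cdc6 probe 3650 alone (star) lies on it at -0.94 direct and -0.92 indirect; the point at the lower left is Cdk2ap2.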

How the data were processed

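Ratios of the 12 arrays were read from the series' value table, whose deposited values are log2 ratios per probe; this unit and its base were inferred from the values, since no label or header states them, and how the authors scanned, corrected and normalized the arrays is not given in the sources used here. Each array's highest code, taken to stand for a spot without a ratio, was set to missing. Replicates 3 and 4 of each comparison were multiplied by -1, and probes of a gene were averaged through the platform annotation, which named 14030 of 20355 probes with 1 symbol, 5 with several and 6320 with none; 36 of the named probes have a gene identifier outside the RefSeq gene table (GRCm38.p6). Features with at least 3 of 4 values in every comparison (14729, of which 9139 have a symbol) were fitted together over 12 arrays with limma 3.58.1 in R 4.3.3 (lmFit and eBayes), with 1 mean per comparison and a dye term, and p-values were adjusted by Benjamini and Hochberg over all features of a comparison. The fit was tested on simulated data with known changes. Group membership, roles, gene lists and marker lists were chosen with earlier results of these data known. Named genes are those called, the 10 with the smallest p per comparison, the smallest p per role, and the main replication, cyclin and kinase genes; cell type lists are late spermatid, meiotic, spermatogonial, Sertoli, Leydig and macrophage markers. Alternatives covered centring, scaling, the dye term, the replicate block, filters, array weights, separate fits, a loop fit, robust moderation, single probes, the code, spots at whole-number ratios, the channel order and each array left out. The arrays give no counts, so the number of arrays limits the precision. Promoter windows are the 250 bases before each RefSeq start site. Proteins were not used here. Some genes that the naming rule covers are not reported here.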

Additional observations from a re-analysis of the deposited data

Results flagged for a closer look

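In 4 of 61 groups of 4 arrays examined, 1 array stood far from the other 3 relative to the group's range (Dixon's test at its 95% critical value), and chance alone gives about 1 in 20 such groups. Mcm4 in Wobbler versus wildtype read 4.171 on replicate 2, against -0.46 to 0.276 on the other arrays. Polb in modifier versus wildtype read -0.176 on replicate 1, against -0.646 to -0.587. Cdc123 in modifier versus Wobbler read 0.611 on replicate 2, against 0.191 to 0.256. Rfc4 in modifier versus Wobbler read -1.171 on replicate 3, against -0.851 to -0.837, so the array that stands apart is also the lowest of the comparison in which the gene was called.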

How the results depend on the processing

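The medians and the counts of called genes kept their values within 1.5 times or the spread between arrays in 193 comparisons with an alternative, and did not in 10. A count of 0 that stayed at 0 was taken as kept. So was a median near 0 that moved by less than the spread between arrays. Such agreement says little. In modifier versus wildtype, 2 genes were called with array weights (Polb and Rad17) and 2 with each probe as its own feature (Cdc6 and Cdk5rap2). Array weights called 709 of all 14729 features in that comparison, against 108 in the main fit, and single probes gave 165 calls among 18038. In modifier versus Wobbler, 0 were called when the comparison was fitted alone or when ratios were read as channel 1 over channel 2, and 2 with each probe as its own feature (Cdc6 and Rfc4). The separate fit and the channel 1 over channel 2 reading also called 0 of all features in that comparison. Read as channel 1 over channel 2, Rfc4 there was 0.0805 and the median of the genes in Wobbler versus wildtype 0.19; this reading ignores the dye swap. With array weights 1 gene had a dye effect, an alternative chosen after seeing the data. With single arrays left out, the called genes ranged from 0 to 1 in Wobbler versus wildtype (Pold3, without its replicate 2), stayed at 0 in modifier versus wildtype and ranged from 0 to 1 in modifier versus Wobbler. There, 0 were called without replicate 1 or 2, and Rfc5 in place of Rfc4 without replicate 3. The cause of these changes was not tested. With the replicate number as a block, 0, 0 and 1 genes (Rfc4) were called in Wobbler versus wildtype, modifier versus wildtype and modifier versus Wobbler, as without it, and 24 of all features in modifier versus Wobbler, against 61. No label gives a reason for the block. Deviations of arrays with the same number correlated between -0.025 and 0.079, and 6 of 12 arrays correlated best with an array of their own number. Dye orientation follows the replicate number and was not removed from these deviations, so they cannot decide whether replicates share an effect. Of all features, the alternatives called 0 to 87 in Wobbler versus wildtype, against 45, 0 to 709 in modifier versus wildtype, against 108, and 0 to 207 in modifier versus Wobbler, against 61.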
